A study of Mus musculus with 36 samples.

Results

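Chromatin accessibility was compared between wild-type (WT) conventional CD4+ T cells (Tconv) of the HP1γ line that had been transferred together with regulatory T cells (Treg) and cells of the same line transferred without them. The comparison used 6 of the 36 ATAC-seq libraries of the series, 3 with Treg and 3 without, chosen by their labels alone, and covered all peaks. HP1γ, encoded by Cbx3, is a reader of methylated histone H3. WT cells of this line came from littermates that were homozygous for a floxed Hp1g allele and lacked the Cd4-cre transgene, on a mixed 129/Sv and C57BL/6 background, and mice of the study were 6 to 12 weeks old. Naive CD4+ T cells were injected into lethally irradiated C57BL/6 hosts with equal parts of C57BL/6 and B6D2F1 bone marrow, so that the B6D2F1 cells were the alloantigen, with or without ex vivo expanded Treg from B6 Foxp3-Thy1.1 mice. After 3 weeks, donor-specific Tconv were sorted from the spleen as Thy1.1- TCR Vβ6+ CD4+ cells, a gate that leaves out the Thy1.1+ transferred Treg. The 3 libraries of naive HP1γ-line WT cells, the libraries of Hp1g-/- (KO) cells, in which Cd4-cre deletes Hp1g in the T lineage, and the HP1α-line WT libraries are used only for reference. Of the Tconv to Treg ratio in its HP1γ RNA-seq experiment, the study states that the response of WT cells was not repressed effectively. Its methods give no ratio for the ATAC-seq libraries. The question was which regulatory regions differed when Tconv had responded to the allograft in the presence of Treg.

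Treg restrain effector CD4+ T cells by consuming IL-2, by inhibitory receptors and by cytokines such as TGF-β, and Tconv that meet alloantigen under such restraint may divide, differentiate or become hyporesponsive to different degrees. When a naive CD4+ T cell is activated, enhancers of effector genes such as cytokines open and enhancers of the quiescent state, which is held by factors such as TCF-1, LEF-1, BACH2 and FOXP1, close. In ATAC-seq, a transposase inserts adapters into open DNA, so that the number of reads in a peak measures how open that region was. It does not measure transcription, and in a sorted bulk population more open alleles per cell and more cells with the open allele cannot be told apart.

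Central 300 bases (GRCm39, + strand) are shown for the leading peaks of each direction that overlapped no annotated exon and, chosen after their values were seen, for the called peaks in Tox and Il4, which stand for the 2 gene groups described below. Capitals mark a match to 1 of 12 searched motifs.
Erich3 intron, chr3:154389261-154389560, higher with Treg: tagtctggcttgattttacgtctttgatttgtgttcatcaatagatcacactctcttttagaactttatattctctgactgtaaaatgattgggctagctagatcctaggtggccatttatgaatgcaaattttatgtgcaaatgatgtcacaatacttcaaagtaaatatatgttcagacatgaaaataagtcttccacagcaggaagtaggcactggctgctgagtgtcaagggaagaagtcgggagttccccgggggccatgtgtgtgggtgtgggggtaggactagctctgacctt
Tox intron, chr4:6945461-6945760, higher with Treg: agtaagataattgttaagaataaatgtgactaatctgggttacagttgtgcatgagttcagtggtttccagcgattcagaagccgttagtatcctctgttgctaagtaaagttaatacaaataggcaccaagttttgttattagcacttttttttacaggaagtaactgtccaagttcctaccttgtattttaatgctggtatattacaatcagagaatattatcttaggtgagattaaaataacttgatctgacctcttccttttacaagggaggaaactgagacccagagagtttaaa
Tor1aip2 intron, chr1:155932966-155933265, lower with Treg: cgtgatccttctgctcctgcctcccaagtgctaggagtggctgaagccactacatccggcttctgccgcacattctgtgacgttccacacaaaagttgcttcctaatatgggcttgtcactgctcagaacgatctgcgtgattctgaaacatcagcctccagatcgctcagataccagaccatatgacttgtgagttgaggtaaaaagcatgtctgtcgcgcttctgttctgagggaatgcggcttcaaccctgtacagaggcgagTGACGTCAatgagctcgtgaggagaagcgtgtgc
Nid2 intron, chr14:19821356-19821655, lower with Treg: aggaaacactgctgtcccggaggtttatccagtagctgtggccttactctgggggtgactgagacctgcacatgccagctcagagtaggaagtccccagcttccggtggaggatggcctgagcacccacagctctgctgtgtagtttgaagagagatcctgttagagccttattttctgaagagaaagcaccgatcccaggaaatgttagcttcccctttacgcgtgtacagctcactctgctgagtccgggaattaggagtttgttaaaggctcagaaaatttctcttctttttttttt
Il4 intron, chr11:53496391-53496690, lower with Treg: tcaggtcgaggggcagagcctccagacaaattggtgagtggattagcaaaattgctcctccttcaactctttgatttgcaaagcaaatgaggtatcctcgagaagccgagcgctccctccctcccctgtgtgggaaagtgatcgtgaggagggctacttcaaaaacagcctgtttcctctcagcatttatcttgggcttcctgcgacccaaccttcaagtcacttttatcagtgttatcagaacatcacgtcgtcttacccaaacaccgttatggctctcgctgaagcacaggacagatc
The match in the Tor1aip2 window is TGACGTCA, the cAMP response element (CRE), which 0.832% of the windows of all peaks hold. No other searched motif occurs in these 5 windows.

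Reads in peaks numbered 51.7, 41.4 and 19.4 M in replicates 1 to 3 with Treg and 69.2, 61.5 and 54.3 M without, so that the library with Treg was the shallower one at every replicate number. Replicates correlated across peaks at 0.957 to 0.976 with Treg and at 0.964 to 0.981 without. Of 10 T cell marker genes, 9 had a peak near their start site and Trac had none. Their summed accessibility was 2059 to 2384 CPM with Treg and 2329 to 2502 without. CPM are reads of a peak per M reads of the library, after TMM scaling except in the sums over marker lists. The TMM factors were 1, 1.03 and 1.16 with Treg and 0.974, 0.952 and 0.947 without. The unscaled marker sums therefore run higher with Treg than scaled ones would. Among Treg markers, all 10 genes had a peak and the summed level was 1315 to 1589 CPM with Treg and 1352 to 1502 without. With TMM scaling, the 2 peaks of Foxp3, the defining Treg factor, summed to 2.79 to 2.85 CPM with Treg and 2.54 to 3.32 without. Markers of B cells (84.6 to 97.8 CPM with Treg, 67.4 to 82.8 without, 7 of 8 genes with a peak, none for Ms4a1) and of CD8 T cells (6.34 to 11.8 and 3.95 to 6.32 CPM, 2 of 2 genes) were, without TMM scaling, higher in every library with Treg. The ranges overlapped for markers of myeloid cells (477 to 562 and 501 to 582 CPM, 6 of 9 genes, with no peak for Csf1r, Lyz2 and Fcgr3), NK cells (490 to 563 and 501 to 596 CPM, 5 of 6 genes, none for Ncr1) and erythroid cells (21.5 to 32.9 and 14.3 to 23.7 CPM, 5 of 6 genes, none for Klf1). The part of these cells in the results was not tested.

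Of 71508 peaks tested, 98 were called, 48 higher and 50 lower with Treg, where a call needs a log2 fold change beyond 1 either way and a Benjamini-Hochberg adjusted p under 0.05 in edgeR's quasi-likelihood test. This is 0.137% of peaks, 0.0671% higher and 0.0699% lower. Their log2 fold changes ranged from 1.02 to 3.35 among the higher peaks and from -2.55 to -1.01 among the lower peaks. The libraries with and without Treg did not overlap at all 48 higher and at 48 of the 50 lower peaks, against 22.2% of all peaks (13.7% with all libraries with Treg above and 8.55% with all below). These same libraries chose the called peaks, so that the high share follows from the choice and is no separate result. At the higher peaks the median count was 98 to 197 reads with Treg and 71 to 107 without, and at the lower peaks 50 to 82 and 194 to 436. With the replicate number as a block in the 6 libraries, which the pairing check allowed, 3641 peaks were called (5.13% of 70941), 3100 higher (4.37%) and 541 lower (0.763%), and 96 of the 98 were among them. All 98 peaks had the same sign in that fit. Of the 130 peaks of Treg markers, 0 were called without the block and 7 higher (5.38%) and 1 lower with it. The median log2 fold change over the 130 was 0.12, and the medians of the 10 markers ranged from -0.40 at Il2ra to 0.59 at Ikzf2, which encodes Helios, with 4 above 0 and 6 below. At Ikzf2, chosen after its values were seen, the block called 4 of 29 peaks higher, 1 with level offsets or thinned reads added and 11 with log2 depth added. In 5 equal bins of all peaks from the weakest to the strongest, the block called 1550, 993, 449, 98 and 10 higher and 83, 183, 179, 93 and 3 lower, so that the share of higher calls depends on level.

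The balance of directions depended on the scaling. Weak peaks were on the whole higher with Treg and strong peaks lower, as the plot of all peaks shows. Among the peaks under -0.28 log2 CPM, 14302 of them, the median log2 fold change was 0.68 and 87.4% of peaks were above 0, while among the 14302 over 4.08 log2 CPM the median was -0.18 and 8.03% were above 0. With loess offsets that remove this trend, 198 peaks were higher and 678 lower, with offsets on GC content 66 and 177, and with library size alone 170 and 31, where the median of all peaks shifted from 0.03 to 0.16. DESeq2 called 2103 higher and 226 lower, and the earlier form of the edgeR test, without adjusted deviances, 644 and 42. Fitting only the 6 libraries left 0 calls in edgeR, with 11492 peaks at an unadjusted p under 0.05 (14522, or 20.3%, with all 18 HP1γ libraries). Leaving out replicate 1 or 3 with Treg, or replicate 2 without, left 1 call each, leaving out replicate 1 without Treg left 15, and leaving out replicate 2 with Treg or replicate 3 without gave 640 and 865. With log2 depth as a covariate 1 peak was called, with depth and the block 1001 higher and 1598 lower, and with all libraries thinned to the reads of the shallowest and the block 1074 and 120. All 98 peaks kept their sign in each of these fits except the thinned one, where 93 did.

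**Figure D1:**
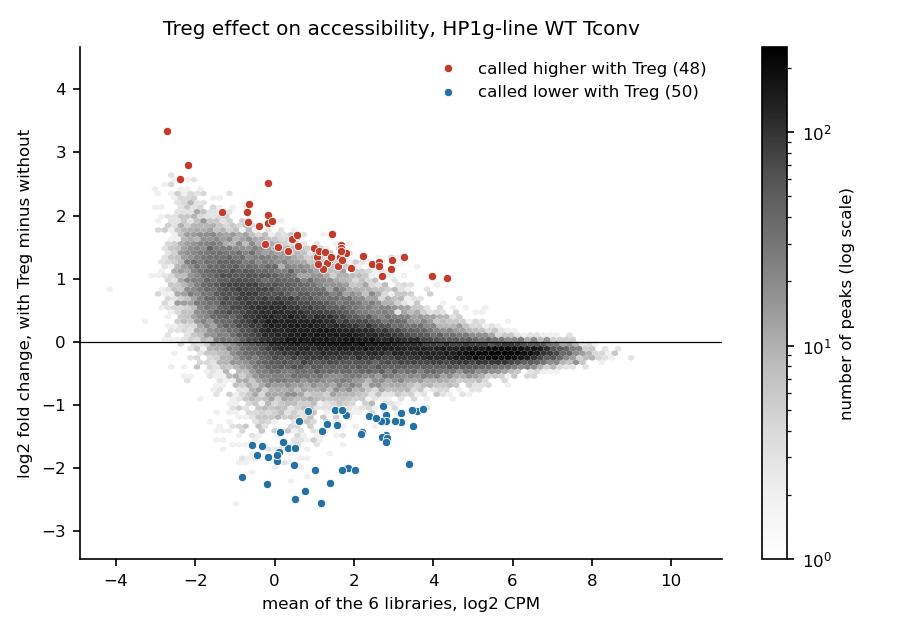
Log2 fold change with Treg minus without (y) against the mean level of the 6 libraries in log2 CPM (x) for 71508 peaks, as grey hexagons shaded by the number of peaks on a log scale, with the 48 called higher peaks in red and the 50 called lower peaks in blue. The grey cloud slopes from a median of 0.68 under -0.28 log2 CPM to -0.18 over 4.08 log2 CPM.

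The peak with the smallest p of all lay in an intron of Erich3, 19.8 kb from its start. It measured 0.89, 0.72 and 0.98 log2 CPM with Treg and -0.93, -0.91 and -1.17 without (94, 69 and 44 reads against 33, 29 and 21), a log2 fold change of 1.91 ± 0.23 (SE, n = 3 and 3, edgeR adjusted p = 0.00117). The 2 groups were far apart, and naive cells were lower than both, at -3.78 to -3.22. The peak at the start of Lpar3, which encodes a receptor for lysophosphatidic acid, had the same order, with 3.21, 2.46 and 3.0 log2 CPM with Treg, 1.61, 1.57 and 1.55 without and -1.36 to -0.71 in naive cells (log2 fold change 1.36 ± 0.21, edgeR adjusted p = 0.0261). Another order, highest in naive cells, was seen at a peak in Mmp15, a membrane-bound matrix metalloproteinase, at chr8:96095671-96097250. It measured 2.43, 2.13 and 2.78 log2 CPM with Treg, 1.09, 0.86 and 0.84 without and 4.72 to 4.85 in naive cells (log2 fold change 1.48 ± 0.23, edgeR adjusted p = 0.0261).

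The other leading higher peaks were at Rph3a, Rin2, Sdk1, Magee2, Sp5, Mex3b and Angptl2, with log2 fold changes of 1.02 to 2.51 and edgeR adjusted p of 0.0395 to 0.0437. RIN2 activates the small GTPase RAB5, and its intronic peak was the strongest of them, with 5.19, 4.27 and 5.04 log2 CPM with Treg and 3.77, 3.92 and 3.91 without. Sp5 encodes a zinc-finger factor induced by Wnt signals. The peak over its start measured 2.25, 1.91 and 2.50 log2 CPM with Treg and 1.1, 0.78 and 1.12 without. With the block the fold changes at Rin2 (0.99) and Angptl2 (1.0) were just short of a call, the only 2 of the 98 peaks lost. Naive cells were above both groups at Rin2, Sdk1, Sp5 and Mex3b and below both at Magee2 and Angptl2. Further called peaks, named after their values were seen, lay 12.4 kb upstream of Ccr7, the receptor that brings T cells into lymph nodes, at the start and in introns of Agbl1 (3 peaks over 10.3 kb), in Tgfbr3 and upstream of Nlrc5 and Tox2.

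The largest drop among the 10 leading lower peaks was in an intron of Tor1aip2, whose product binds torsin A at the endoplasmic reticulum. It measured -0.95, -0.69 and -0.19 log2 CPM with Treg and 1.95, 2.01 and 0.93 without (25, 25 and 19 reads against 258, 233 and 96), a log2 fold change of -2.48 ± 0.35 (edgeR adjusted p = 0.0261). The peak at the start of Ergic1, a protein that cycles between endoplasmic reticulum and Golgi, measured 1.75, 2.14 and 2.29 log2 CPM with Treg and 3.67, 3.86 and 3.14 without (log2 fold change -1.59 ± 0.23, edgeR adjusted p = 0.0261). Naive cells were between the 2 groups at Ergic1, at 2.84 to 3.13, and below both at Tor1aip2, at -2.02 to -1.52. Nid2 encodes the basement membrane protein nidogen-2. Its intronic peak measured 0.28, 0.62 and 0.70 log2 CPM with Treg and 2.06, 1.79 and 1.78 without (log2 fold change -1.42 ± 0.21, edgeR adjusted p = 0.0261).

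The other leading lower peaks were at Epas1, Gcnt2, Eml1 (2 peaks), Il4, Ube2e3 and Ldha. Epas1 encodes the hypoxia-inducible factor HIF-2α. The peak in its exon measured 2.72, 2.85 and 2.96 log2 CPM with Treg and 3.89, 4.54 and 3.95 without (log2 fold change -1.34 ± 0.20, edgeR adjusted p = 0.0261). The peak 14.1 kb upstream of Ldha, which encodes a lactate dehydrogenase subunit, measured -0.45, 0.16 and -0.61 log2 CPM with Treg and 2.47, 2.34 and 0.74 without (log2 fold change -2.36 ± 0.40, edgeR adjusted p = 0.0308). Eml1, which encodes a microtubule-binding protein, had 3 called peaks within 4.52 kb of an intron, with log2 fold changes of -1.51 to -1.25. In all, 7 stretches held neighbouring calls of the same direction within 100 kb, 17 peaks together, among them 3 lower peaks over 25.8 kb at Prss38 and Snap47.

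**Figure D2:**
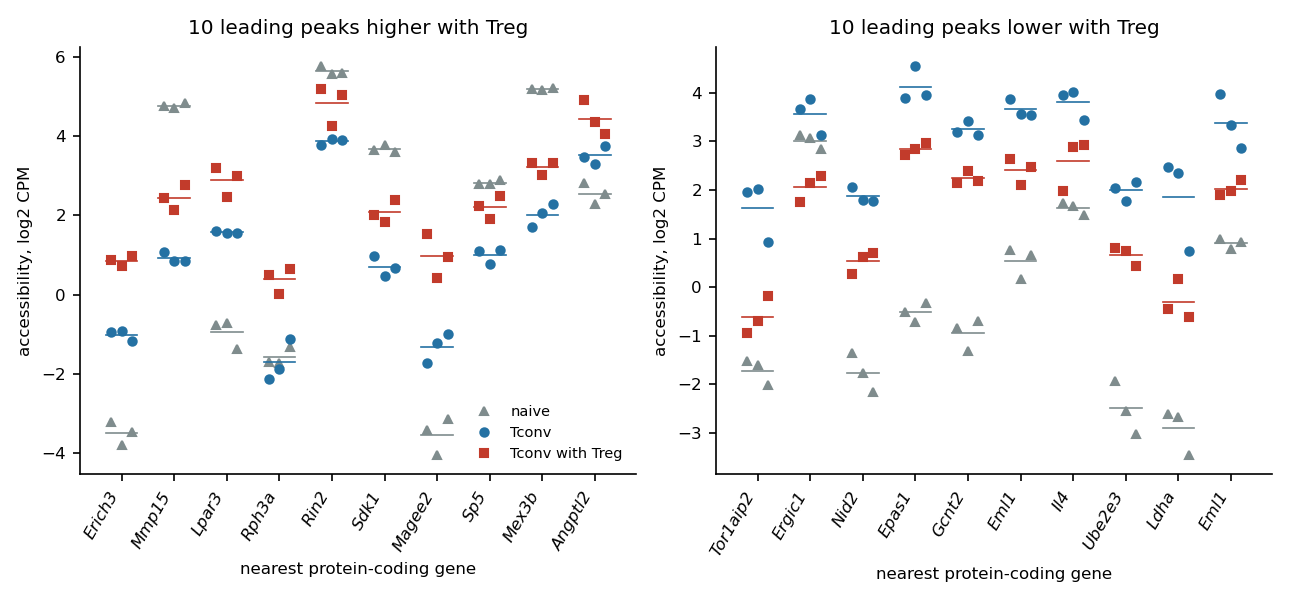
Accessibility in log2 CPM (y) of the 10 leading higher and the 10 leading lower peaks, named by the nearest protein-coding gene (x), in naive cells (grey triangles), Tconv without Treg (blue circles) and Tconv with Treg (red squares) of the HP1γ line, 3 WT libraries each, with the mean as a line. Only called peaks without overlap of red and blue symbols were chosen. Naive cells lie below the blue symbols at all 10 lower peaks.

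The 50 lower peaks were, as a group, regions that were closed in naive cells and open in Tconv. Their median level was -1.97 log2 CPM in naive WT cells, 2.32 in WT Tconv and 0.96 in WT Tconv with Treg, against 1.39, 1.33 and 1.45 over all peaks. In the HP1α-line WT cells, whose libraries the choice of peaks did not use, Tconv were more open than naive cells at 49 of the 50 (98.0%, median log2 fold change 2.92), against 50.7% of all peaks (median 0.02). The 48 higher peaks were more mixed. Their median was 3.12 log2 CPM in naive WT cells, 0.59 in WT Tconv and 1.88 in WT Tconv with Treg, and HP1α-line Tconv were less open than naive cells at 35 of the 48 (72.9%, median -2.04), against 49.3% of all peaks. The other 13 include Erich3, Lpar3, Rph3a, Magee2, Angptl2, Tox and Tox2. In WT cells, the naive mean lay on the same side of the Tconv mean as the mean with Treg did at all 50 lower and 37 of the 48 higher peaks (77.1%), against 65.0% of all peaks, a share that uses the same Tconv libraries as the choice of peaks.

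The same contrast in libraries that share none of these 6 gave the same sign at most of the called peaks. In Hp1g-/- cells, Tconv with Treg were above those without at 45 of the 48 higher peaks (93.8%, median log2 fold change 0.79), against 47.7% of all peaks, and below at 47 of the 50 lower peaks (94.0%, median -0.81), against 52.3%. The Hp1g-/- libraries with Treg held 64.2, 60.5 and 39.6 M reads and those without 50.6, 32.6 and 67.7 M, with overlapping ranges. The part of depth in these values was not tested. In HP1α-line WT cells the shares were 46 of 48 (95.8%, median 1.24, all peaks 50.3%) and 42 of 50 (84.0%, median -0.95, all peaks 49.7%) with the libraries kept by the study and 47 of 48 (all peaks 55.3%) and 39 of 50 (all peaks 44.7%) with all libraries, which held 1.49 to 12.7 M reads with Treg and 6.2 to 74.4 M without. The kept libraries with Treg were replicates 1 and 2 alone, at 12.7 and 1.49 M reads. In replicate 2, 8853 peaks had no read. The part of depth was not tested here either. Across all 71508 peaks, the log2 fold changes correlated at 0.42 with those in Hp1g-/- cells and at 0.56 with those in the HP1α line (Pearson; a description over peaks that share libraries and the scaling).

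By level, Hp1g-/- Tconv had a median of 2.18 log2 CPM with Treg and 1.45 without at the higher peaks, and of 0.04 with and 1.18 without at the lower peaks, where naive Hp1g-/- cells had 3.33 and -1.13. The levels of WT Tconv with and without Treg chose these peaks, so that their distance from the other groups is no result.

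**Figure D3:**
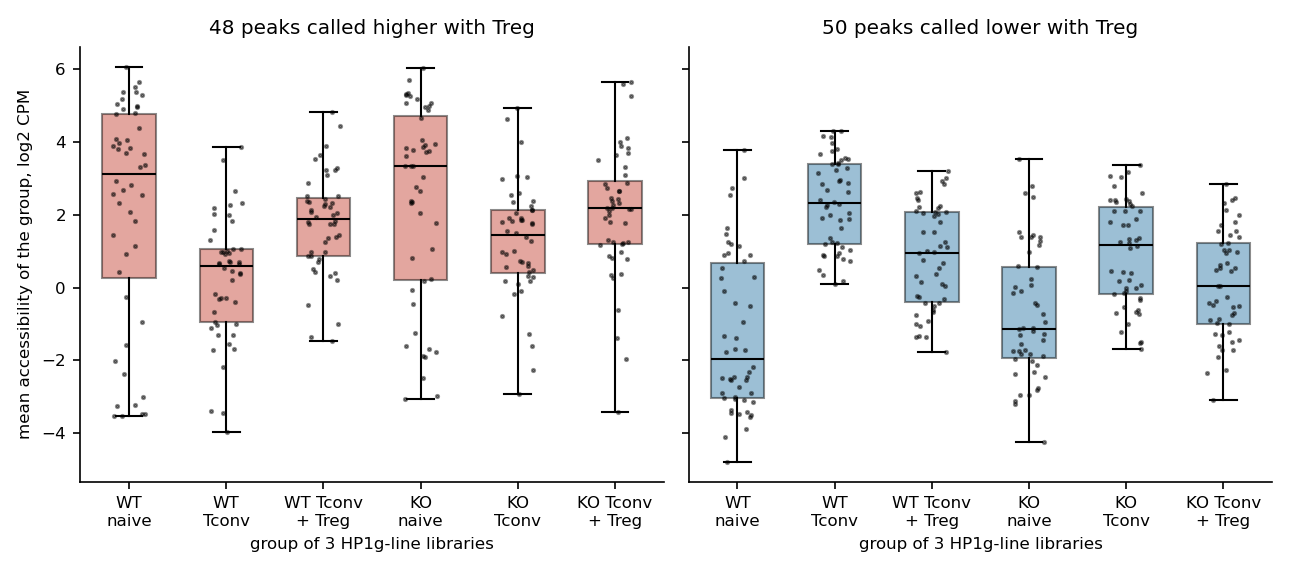
Mean accessibility in log2 CPM (y) of the 48 peaks called higher (left, red) and the 50 called lower (right, blue) in each of the 6 groups of 3 HP1γ-line libraries (x). Points are peaks, boxes span the quartiles with the median as a line, and whiskers reach the extremes. Medians with Treg lie between those of Tconv and of naive cells in both panels.

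Compared with all peaks, the called higher peaks were wider (median 1240 against 750 bp) and farther from a protein-coding start site (43.7 against 12.1 kb), and the lower peaks were narrower (580 bp) and 18.8 kb away. Introns held 45.8% of the higher, 40.0% of the lower and 38.2% of all peaks. Within 1 kb of a protein-coding start site lay 4 of the 48 higher peaks, 5 of the 50 lower peaks and 20.2% of all peaks. Of the motifs searched in the central 300 bases on both strands, TGANTCA, the AP-1 motif, occurred in 11 of the 48 higher peaks (22.9%) and 9 of the 50 lower peaks (18%), against 13.0% of all peaks. RUNX (TGTGGTTT) occurred in 7 (14.6%) and 1 (2.0%), against 5.55%, and E-box (CACGTG) in 7 (14.6%) and 2 (4.0%), against 6.02%. STAT (TTCNNNGAA) occurred in 5 (10.4%) and 9 (18%), against 8.89%, and ETS (CACTTCCT) in 3 (6.25%) and 6 (12%), against 7.6%. The CRE (TGACGTCA) occurred in 0 and 2 peaks, NF-kB (GGGANTTTC) in 0 and 3, TCF/LEF (CTTTGATC) in 2 and 0, FOXO (TGTTTAC) in 0 and 2, KLF/SP (GGGGCGGGG) in 0 and 1, NFAT (TGGAAAA) in 3 and 3 and IRF (GAAANNGAA) in 5 and 6, against 0.832%, 1.6%, 1.58%, 4.34%, 3.87%, 6.76% and 10.7% of all peaks. The AP-1, STAT and IRF strings can overlap one another.

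Tox, which encodes an HMG-box factor known from exhausted and chronically stimulated T cells, was the gene with the most block-called peaks. Its 88 assigned peaks, over 855 kb of chromosome 4, had a median log2 fold change of 1.03, and 87 of the 88 were above 0. Their summed accessibility was 387, 295 and 261 CPM with Treg and 203, 197 and 220 without, with no overlap, and 511 to 546 CPM in naive cells. At the called intronic peak, 45.1 kb from the start, the values were -0.18, -0.07 and -1.21 log2 CPM with Treg and -2.13, -2.16 and -2.24 without (log2 fold change 2.06 ± 0.39, edgeR adjusted p = 0.0437). They rest on 44, 39 and 9 reads with Treg and 13, 11 and 9 without. In replicate 3 the counts were equal, at 19.4 M reads in peaks with Treg and 54.3 M without, so that its difference comes from the scaling. In all, 1 Tox peak was called, and 35 with the block, all higher, 29 of them inside the gene. Of all peaks the block called 4.37% higher, and of the 14302 peaks under -0.28 log2 CPM 1550. The peaks were weak, with a median level of -0.41 log2 CPM, in the range where most peaks were higher with Treg, and with level offsets and the block only 1 was called and the median was 0.70. The median lay 0.71 to 1.31 above that of all peaks in 11 fits for which such medians were computed. These were TMM scaling, library size alone, level offsets, GC offsets, DESeq2, limma voom, log2 depth, the share of reads near a start site, and the block alone, with level offsets and with log2 depth. In Hp1g-/- cells the Treg contrast was above 0 at 77 of the 88 peaks (median 0.96), where the median of all peaks under -0.28 log2 CPM was 0.13, and in HP1α-line WT cells at 85 (median 1.16, against 0.78 for those peaks).

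**Figure D4:**
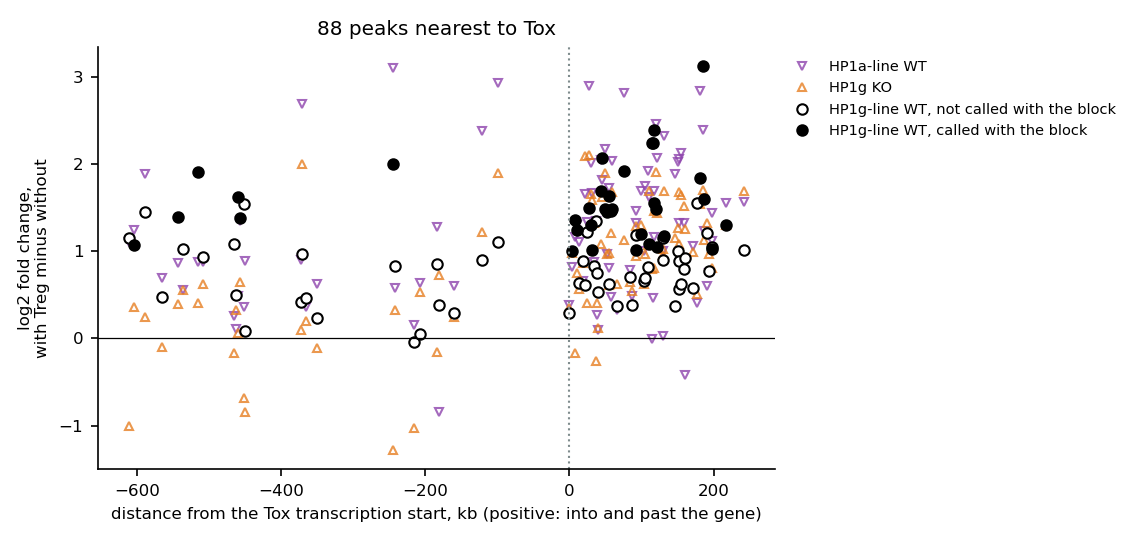
Log2 fold change with Treg minus without (y) of the 88 peaks nearest to Tox against their distance from its start site in kb (x), in HP1γ-line WT cells (circles, filled for the 35 peaks called with the replicate block), Hp1g-/- cells (orange upward triangles) and HP1α-line WT cells (purple downward triangles). All but 1 of the circles lie above 0.

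The list of inhibitory receptors and exhaustion genes, to which Tox belongs, had 216 peaks at 14 genes, a median log2 fold change of 0.61 against 0.03 over all peaks, 2 peaks called higher and 0 lower, and 49 higher (22.8%) and 3 lower (1.4%) with the block. The block called 4.37% of all peaks higher and 0.763% lower. Tox carried most of this. Without it the list had 128 peaks with a median of 0.07, 1 called higher and, with the block, 14 higher and 3 lower. The other called peak lay 46.8 kb from the start of Tox2, a relative of Tox, and measured 0.51, -0.31 and 0.40 log2 CPM with Treg and -1.59, -1.86 and -1.23 without (log2 fold change 1.9 ± 0.39, edgeR adjusted p = 0.0477). With the block, 3 of 8 peaks of Cd200, which encodes a ligand of an inhibitory receptor, 2 of 9 peaks of Pdcd1, which encodes PD-1, and 1 peak each of Ctla4 and Btla were higher, and 1 peak each of Entpd1 and Cd244a was lower. With level offsets and the block the list had 3 higher and 2 lower calls and a median of 0.33, and with log2 depth and the block 30 and 1.

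Genes of the naive and memory state had 543 peaks, a median log2 fold change of 0.33 and 1 called peak. With the block 40 were higher (7.45%, against 4.37% of all peaks) and 1 lower. The list's peaks had a median level of 0.74 log2 CPM, and of all 14302 peaks from -0.28 to 0.80 log2 CPM the block called 993 higher. The called peak, upstream of Ccr7, measured 3.10, 2.84 and 3.32 log2 CPM with Treg and 1.77, 2.11 and 1.60 without (log2 fold change 1.23 ± 0.23, edgeR adjusted p = 0.0437), and 4.90 on average in naive cells. The block calls included 14 of 96 peaks of Foxp1 (14.6%) and 8 of 83 of Bach2 (9.64%), whose products hold T cells quiescent, and 5 of 41 of Lef1 (12.2%). The 1 of 22 at Tcf7 (4.55%) was near the share of all peaks. With level offsets and the block 3 peaks were higher at Foxp1 and 0 at Bach2, Lef1 and Tcf7. With log2 depth and the block Foxp1 turned, with 0 higher and 4 lower peaks and a median of -0.13, and the other 3 genes had 0 calls. Summed over all its peaks, Foxp1 measured 453, 423 and 467 CPM with Treg and 488, 392 and 356 without, and 1472 to 1493 in naive cells. Bach2 measured 991, 1056 and 892 CPM with Treg and 1019, 1110 and 969 without. The sums were 596, 629 and 537 with and 675, 608 and 591 without at Lef1, and 527, 596 and 462 with and 530, 621 and 597 without at Tcf7. The groups overlapped at all 4 genes, and Bach2 and Tcf7 were lower with Treg at every replicate number. In Hp1g-/- cells the median of the same contrast was -0.12 at Foxp1, -0.12 at Bach2, -0.25 at Lef1 and -0.33 at Tcf7, beside 0.64, 0.53, 0.21 and 0.52 in these WT cells. In HP1α-line WT cells it was 0.62, 0.55, 0.13 and -0.46. The differences between these medians were not tested. The best Foxp1 peak, 3.58 kb from its start, measured 1.86, 1.35 and 1.30 log2 CPM with Treg and 0.24, 0.22 and -0.83 without (log2 fold change 1.62 ± 0.34, edgeR adjusted p = 0.0573, 0.00841 with the block). Over the 11 fits this list's median lay at most 0.34 above that of all peaks (0.39 with 1 library left out) and fell 0.04 below it with log2 depth and the block, where the calls turned too, with 2 higher and 13 lower. With level offsets and the block 5 were higher and 1 lower.

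The Th2 cytokine genes lay on the other side. At Il4 all 4 peaks were below 0 (median log2 fold change -1.02), at Il13 all 7 (median -0.90) and at Il5 all 6 (median -0.49), and the signs of these medians, relative to all peaks, held in these 11 fits. The called peak in an Il4 intron, 11 kb from its start, measured 1.97, 2.89 and 2.92 log2 CPM with Treg and 3.95, 4.01 and 3.44 without (log2 fold change -1.27 ± 0.20, edgeR adjusted p = 0.0265), against 1.49 to 1.73 in naive cells. Summed over its peaks, Il4 measured 14.1, 25 and 26.4 CPM with Treg and 37.7, 50.5 and 35.0 without, and Il13 72.1, 115 and 94.6 with and 125, 212 and 181 without, both without overlap. Il5 measured 41.3, 51.8 and 39.4 with and 49.1, 67.2 and 65.1 without, and overlapped. With the block, 2 peaks of Il4, 3 of Il13 and 0 of Il5 were lower, and with level offsets and the block 1, 0 and 0. At the best peak of Il13, 6.13 kb from its start, the log2 fold change was -1.19 ± 0.26 (edgeR adjusted p = 0.0627, 0.00552 with the block). In Hp1g-/- cells the contrast was above 0 at 0 of 4 Il4, 1 of 7 Il13 and 0 of 6 Il5 peaks, and in HP1α-line WT cells at none of the 17. Il4, Il5 and Il13 lie near one another on chromosome 11, so that their peaks are not independent.

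Other genes with lower peaks under the block were chosen after their values were seen. At Gata3, the factor that directs Th2 differentiation, 5 of 71 peaks were lower and 0 higher, and at Il1rl1, which encodes the IL-33 receptor, 4 of 20 and 0. At Csf2, which encodes GM-CSF, 3 of 19 were lower. At Socs2, a STAT5-induced inhibitor of cytokine signaling, all 7 peaks were below 0, 2 were lower with the block, and the peak at the start measured 5.84, 6.29 and 5.96 log2 CPM with Treg and 6.72, 7.03 and 6.61 without (log2 fold change -0.75 ± 0.15, edgeR adjusted p = 0.0478, 0.00777 with the block), below the fold threshold for a call. With level offsets and the block 3 peaks of Gata3, 2 of Il1rl1, 2 of Csf2 and 3 of Socs2 were lower. The Th17 and Th2 list as a whole had 279 peaks, a median of -0.11, 0 calls, and 13 higher and 13 lower peaks with the block (4.68% each, against 4.37% and 0.763% of all peaks). The balance changed with the scaling, with 6 higher and 31 lower with log2 depth and the block, 2 and 6 with level offsets and the block, and 0 and 14 with level offsets alone. The higher ones included 4 of 8 peaks of Ccr6, a chemokine receptor of Th17 cells, and 4 of Maf.

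Effector cytokines together had 149 peaks, a median of -0.12, 0 higher and 1 lower call, and 4 higher and 10 lower peaks with the block (2.68% and 6.71%, against 4.37% and 0.763% of all peaks). All 4 higher ones belonged to Il21, a cytokine of follicular helper cells. With level offsets and the block the list had 0 higher and 3 lower peaks, and with log2 depth and the block 6 and 13. No peak of Ifng, Il2, Il17a or Il10 was called in either fit. The best Ifng peak, 53.7 kb from its start, measured 1.72, 1.18 and 1.45 log2 CPM with Treg and 0.56, 0.61 and 0.77 without (log2 fold change 0.86 ± 0.37, edgeR adjusted p = 0.207), while the median over its 34 peaks was -0.07 and their sum 408, 397 and 300 CPM with Treg and 390, 390 and 426 without. The best peaks of Il2 (0.43 ± 0.19, edgeR adjusted p = 0.221), Il17a (0.91 ± 0.59, 0.374) and Il10 (-0.36 ± 0.14, 0.192) did not pass either.

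The genes of inhibitory receptors and of anergy that the study names gave mixed values. At Tigit, an inhibitory receptor, the best peak measured -0.03, 0.50 and 0.49 log2 CPM with Treg and 2.15, 2.25 and 0.88 without (log2 fold change -1.65 ± 0.35, edgeR adjusted p = 0.0577, 0.00796 with the block), and another of its 14 peaks was higher with the block. The best peaks of Pdcd1 (0.88 ± 0.30, edgeR adjusted p = 0.144), Lag3 (0.91 ± 0.44, 0.245) and Havcr2 (-0.59 ± 0.21, 0.149), 3 further inhibitory receptors, were not called in either fit. At Nt5e, which encodes the ectonucleotidase CD73, the values were 2.58, 1.77 and 2.37 log2 CPM with Treg and 1.41, 1.28 and 1.27 without (log2 fold change 0.97 ± 0.26, edgeR adjusted p = 0.0968), and at Izumo1r, which encodes the folate receptor FR4, 0.79, 0.64 and 1.28 with and 0.06, -0.25 and -0.16 without (0.98 ± 0.26, edgeR adjusted p = 0.0973, 0.0493 with the block, where it was called). The better Foxp3 peak differed by -0.72 ± 0.62 (edgeR adjusted p = 0.498). The single peak of Cbx3, over its start, measured 7.41, 7.23 and 7.19 log2 CPM with Treg and 7.33, 7.49 and 7.55 without (-0.18 ± 0.06, edgeR adjusted p = 0.163).

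TCR-induced factors had 129 peaks and a median of -0.12, with 0 higher and 1 lower call and, with the block, 1 higher (0.775%, against 4.37% of all peaks) and 2 lower (1.55%, against 0.763%). The median level of these peaks was 2.28 log2 CPM, and of the 14301 peaks from 2.06 to 4.08 log2 CPM the block called 98 higher and 93 lower. The called peak belonged to Nfatc2, which encodes a calcium-dependent activator of cytokine genes, lay 101 kb from its start and had a log2 fold change of -1.25 ± 0.25 (edgeR adjusted p = 0.0499). A second Nfatc2 peak, 4.12 kb from the start, measured 5.32, 5.35 and 5.12 log2 CPM with Treg and 5.78, 5.87 and 5.75 without (-0.52 ± 0.10, edgeR adjusted p = 0.0477), and a peak near Egr3, an immediate early gene, 5.51, 5.76 and 5.38 with and 6.06, 6.11 and 6.06 without (-0.51 ± 0.09, edgeR adjusted p = 0.0395). Both passed the p threshold but not the fold threshold. AP-1, BATF and IRF factors had 139 peaks, a median of -0.14, 0 calls, and 1 higher (0.719%) and 2 lower (1.44%) peaks with the block. The best Fos peak, 31.3 kb from its start, measured 1.31, 2.73 and 1.74 log2 CPM with Treg and 3.11, 4.08 and 2.99 without (-1.43 ± 0.36, edgeR adjusted p = 0.0842, 0.00306 with the block), and the best Fosl2 peak differed by -2.59 ± 0.61 (edgeR adjusted p = 0.0663, 0.0236 with the block), with groups that overlapped.

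Glycolysis and mTOR genes had 113 peaks, a median of -0.15, 1 lower call, at Ldha, and 3 lower (2.65%, against 0.763% of all peaks) and 0 higher peaks with the block, the others at Pfkp, which encodes a phosphofructokinase (best peak -1.61 ± 0.45, edgeR adjusted p = 0.102, 0.0197 with the block), and Rptor. Receptors and STAT proteins of γ-chain cytokines had 147 peaks, a median of -0.08, 0 calls, and 4 lower (2.72%) and 0 higher peaks with the block. The best peak of Socs1, a further feedback inhibitor, differed by -0.26 ± 0.06 (edgeR adjusted p = 0.081). The TGF-β pathway had 314 peaks, a median of 0.13, 1 higher call and, with the block, 19 higher (6.09%, against 4.37% of all peaks) and 1 lower. The direction of these calls turned with log2 depth and the block, where 2 were higher and 8 lower, and level offsets and the block gave 2 and 0. The called peak, in the Tgfbr3 gene of a TGF-β co-receptor, measured 1.28, 1.04 and 1.45 log2 CPM with Treg and -0.16, -0.70 and -0.30 without (1.63 ± 0.32, edgeR adjusted p = 0.0483), against 4.09 on average in naive cells. The best peak of Tgfbr2, a TGF-β receptor chain, differed by 0.72 ± 0.17 (edgeR adjusted p = 0.0738).

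The remaining lists had 0 calls. Their block calls stand beside 4.37% higher and 0.763% lower over all peaks. Median levels of the 18 lists ranged from 0.74 to 2.85 log2 CPM. Relative to all peaks, the medians of the Th1, effector differentiation, effector cytokine, TGF-β, naive and memory, cell cycle, interferon and HP1 lists turned sign with log2 depth and the block, while those of the TCR, AP-1, Th17 and Th2, inhibitory receptor, costimulatory, γ-chain, adenosine, survival and glycolysis lists kept theirs in the 11 fits. The Th1 programme had 216 peaks, a median of -0.12 and, with the block, 9 higher (4.21%) and 0 lower, 7 of them at Eomes, a T-box factor (best peak 1.13 ± 0.32, edgeR adjusted p = 0.104), and 0 at Runx3 (best peak -0.40 ± 0.12, 0.114). With level offsets and the block 0 peaks of the Th1 list were called, and Eomes had 2 higher peaks with log2 depth and the block and 2 with thinned reads and the block. Effector differentiation and cytotoxicity genes had the lowest median of the 18 lists, -0.25 over 263 peaks, with 22.1% above 0 against 53.1% of all peaks, and 5 higher (1.9%) and 1 lower peaks with the block. The median level of these peaks was 2.57 log2 CPM. Of the 14301 peaks from 2.06 to 4.08 log2 CPM, 39.8% were above 0, with a median of -0.07. The best peak of Id2, a regulator of effector fate, differed by -0.76 ± 0.16 (edgeR adjusted p = 0.0577) and that of Gzma, which encodes granzyme A, by -1.07 ± 0.31 (0.104). Anergy genes had 194 peaks, a median of 0.09 and 7 higher (3.63%) and 0 lower peaks with the block. Their median level was 1.74 log2 CPM, and of the 14301 peaks from 0.80 to 2.06 log2 CPM the block called 449 higher. The best peaks of Cblb, a ubiquitin ligase that limits TCR signals, and of Nrp1, neuropilin-1, differed by 0.44 ± 0.10 (edgeR adjusted p = 0.0663) and -0.91 ± 0.23 (0.0829).

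Costimulatory receptors had 166 peaks, a median of -0.06, and 1 higher and 0 lower peaks with the block. Cd40lg, which encodes CD40 ligand (-0.45 ± 0.14, edgeR adjusted p = 0.127), and Tnfrsf9, which encodes 4-1BB (1.05 ± 0.35, 0.132), had the best peaks. Adenosine and cAMP pathway genes had 215 peaks, a median of -0.04, and 4 higher and 1 lower peaks with the block. Their best peaks were at the phosphodiesterase gene Pde4b (-0.49 ± 0.13, edgeR adjusted p = 0.0911) and at Ptger4, a prostaglandin E2 receptor (-1.12 ± 0.30, 0.0918). Cell cycle genes had 182 peaks and a median of -0.03, with 2 higher and 0 lower peaks with the block, and the best peaks, at the start of the inhibitor gene Cdkn1a and of Ccnd2, which encodes cyclin D2, differed by -0.33 ± 0.08 and -0.30 ± 0.07 (edgeR adjusted p = 0.0796 and 0.0823). Survival and apoptosis genes had 171 peaks, a median of 0.02, and 3 higher and 1 lower peaks with the block, with best peaks at the death receptor gene Fas (0.96 ± 0.23, edgeR adjusted p = 0.0763) and at Bbc3, which encodes PUMA (-0.27 ± 0.07, 0.0893). Interferon-stimulated genes had 59 peaks, a median of -0.09 and 1 higher peak with the block, at Ifi27l2a (1.29 ± 0.37, edgeR adjusted p = 0.105), while Irf1 differed by -0.45 ± 0.14 (0.126). HP1 proteins and H3K9 methylation genes had 16 peaks, a median of -0.14 and no block call, and the peak of Trim28, a corepressor, differed by -0.12 ± 0.07 (edgeR adjusted p = 0.299). In the Th17 and Th2 list the best peaks were at Ahr, the aryl hydrocarbon receptor (-1.89 ± 0.45, edgeR adjusted p = 0.0707), and Maf, a factor that induces cytokine genes (1.39 ± 0.34, 0.0712).

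**Figure D5:**
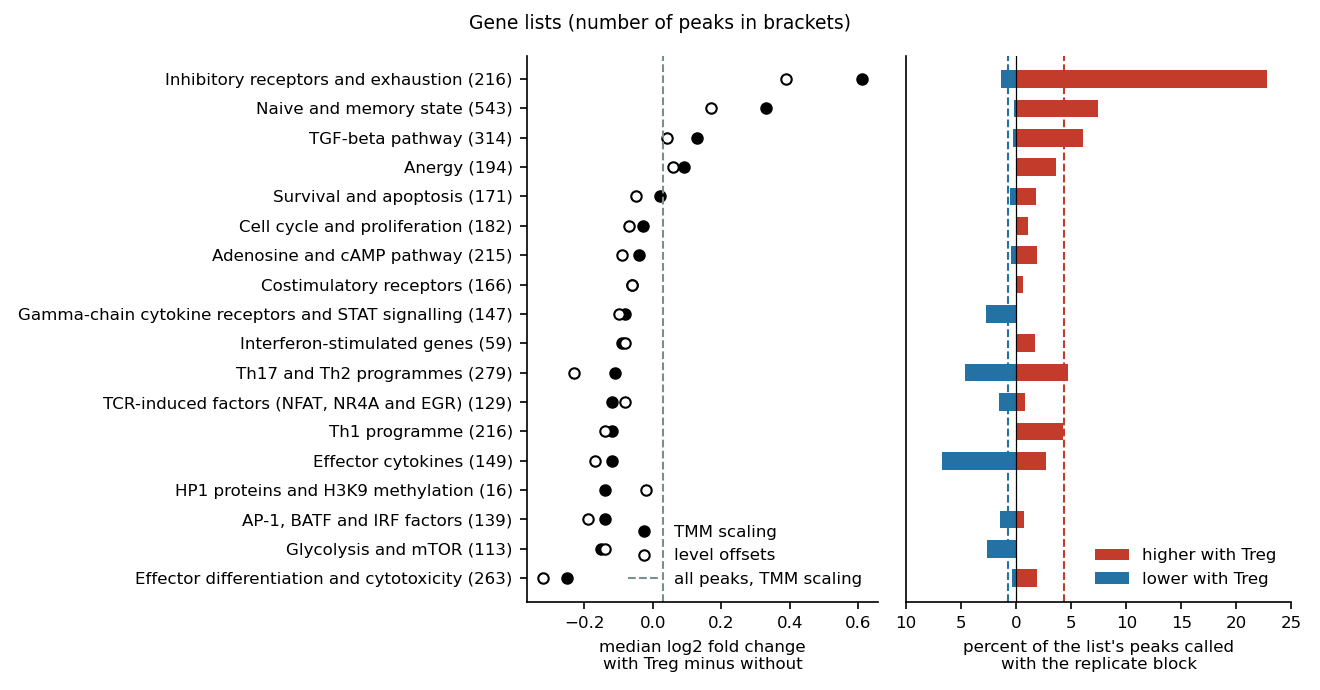
Left, median log2 fold change with Treg minus without (x) over the peaks of each of 18 gene lists (y, number of peaks in brackets), with TMM scaling (filled) and with level offsets (open), and the median of all peaks with TMM scaling as a dashed line. Right, percent of each list's peaks called higher (red, to the right) or lower (blue, to the left) with the replicate block, with the percent of all peaks as dashed lines. Inhibitory receptors and exhaustion genes, with 22.8% higher, and effector cytokines, with 6.71% lower, reach furthest on the 2 sides, and Tox holds 35 of the 49 higher peaks of the former.

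Whether the Treg effect in these cells differed from that in other cells was tested as an interaction. Against Hp1g-/- cells, 1 of 71508 peaks was called (0.0014%, edgeR), an intronic peak of Trpm6, and 9150 (12.8%) had an unadjusted p under 0.05, while DESeq2 called 799. Against HP1α-line WT cells, another mouse line, 0 of 71509 peaks were called (0.0%, edgeR), 7481 (10.5%) had an unadjusted p under 0.05, and DESeq2 called 920. At Il4 the intronic peak had a log2 fold change of -0.11 in Hp1g-/- cells, and the difference from WT had an unadjusted p of 0.00179 and was not called. The WT libraries that chose this peak also enter the difference, so that its unadjusted p leans towards a difference. Among the called peaks, 21 of the 48 higher and 12 of the 50 lower had an unadjusted p under 0.05 in this test. At Erich3 the Treg contrast was 1.69 in Hp1g-/- and 2.15 in HP1α-line WT cells, beside 1.91 in these cells.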

How the data were processed

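The table that the authors deposited holds raw counts of ATAC-seq reads per consensus peak, with no normalization. Per the study's methods, reads were trimmed with Trim Galore 0.6.7, aligned to GRCm39 with BWA and filtered, HMMRATAC peaks of the single samples were merged, and read overlaps were counted with featureCounts 2.0.3, so that neighboring peaks can share a read. Of 71512 intervals, 3 had no width and were left out. The deposited list of peak positions was not used here. Peaks were assigned to the nearest protein-coding TSS of GENCODE vM39, and positions count from 1.

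All 18 HP1γ libraries (6 groups) were fitted with edgeR 4.0.16 (R 4.3.3, filterByExpr, TMM, quasi-likelihood F test with adjusted deviances, two-sided, Benjamini-Hochberg over all peaks), with the study's thresholds for a call (0.05 for the adjusted p, 1 for the size of the log2 fold change). The form with adjusted deviances was made the main one after both counts of calls were seen (98, and 686 without them). The difference from the HP1α line used 33 libraries. Levels in log2 CPM used a prior count of 2. Biological variation between replicates was 22.2% as a coefficient (20.1% with the block).

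The labels number the replicates, and no source says what a number stands for or that replicates came from separate mice, so that p-values measure the spread between these samples, which may be technical. Deviations from the group means correlated at 0.286, 0.200 and 0.228 for equal numbers and at most at 0.00831 for unequal ones, so blocked values stand beside results whose call they change. The replicate number is thereby a pairing seen in the data.

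Members and gene lists were chosen with earlier results of these data known. Named peaks were the 10 called peaks of smallest p in each direction without overlap of the 6 libraries, the 2 genes of smallest p in each of 18 lists, and 13 genes of the study, by their peak of smallest p. Others are said to be named after their values were seen. Windows that overlap an exon are not printed.

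On simulated data in which 200 of 71508 peaks had been moved by 2 on the log2 scale, the test recovered 88.5% and called 16 unchanged peaks, with the block 84.5% and 3 (of 70833 peaks), and the interaction 67% and 10. The moved peaks were drawn only from those above a minimum mean read count in the 6 libraries. No trend with level or depth was simulated. Recovery of weaker peaks or smaller changes, and false calls under such a trend, were not tested. Alternatives were other scalings, DESeq2 1.42.0, limma 3.58.1, filters, depth and TSS share as covariates, the replicate block and leaving out each library. Figures were drawn with matplotlib.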

Additional observations from a re-analysis of the deposited data

Results flagged for a closer look

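An intronic peak of Trpm6, which encodes a magnesium channel, at chr19:18743671-18744330 (GRCm39), was the 1 peak called for a difference of the Treg effect between Hp1g-/- and WT cells in edgeR with all 18 HP1γ-line libraries, where DESeq2 called 799. In WT cells it measured 1.49, 1.94 and 2.07 log2 CPM with Treg and 3.14, 2.66 and 2.16 without, and in Hp1g-/- cells 3.31, 2.83 and 3.29 with and 2.01, 1.71 and 1.38 without. The log2 fold change was -0.95 ± 0.25 in WT and 1.46 in Hp1g-/- cells, a difference of 2.42 (edgeR adjusted p = 0.03). The groups did not overlap within either genotype. The call was lost with library size alone, with only the 4 groups, with the replicate block, with log2 depth and with the earlier edgeR form, and 9 of the 12 fits that left out 1 library made no call.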

How the results depend on the processing

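The count of called peaks (98, 48 higher and 50 lower with Treg) depended strongly on the processing, while the sign of the called peaks did not: all 98 kept it in every alternative but thinning to the shallowest library (97), thinning with the replicate block (93) and autosomes alone (95 tested). Called were 201 peaks with library size alone, 876 with loess offsets on mean level (198 higher, 678 lower), 243 with GC offsets (66, 177), 2329 with DESeq2 (2103, 226), 1069 with limma voom (920, 149), 1007 with the share of reads near a start site as a covariate (266, 741), 1 with log2 depth as a covariate, and 0 in edgeR with only the 6 libraries compared (11492 at an unadjusted p under 0.05). With the replicate block on the 6 libraries 3641 were called, 3755 with GC offsets added, 756 with loess offsets (379, 377) and 2599 with log2 depth (1001, 1598), and 0 in edgeR where only replicate 1 was set against 2 and 3 (13931 unadjusted). Chosen after seeing the data, the earlier form of the edgeR test gave 686 (1445 with the block), the block with thinned reads 1194 and the block over all 18 HP1γ libraries 521. Leaving out 1 library gave 1 to 865 calls, and leaving out 1 replicate number under the block 2997 to 4199 (4162 without replicate 1). The causes were not tested.

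The difference from Hp1g-/- cells (1 call) gave 799 calls with DESeq2 and 0 with library size alone, only the 4 groups, the replicate block, log2 depth and the earlier edgeR form, and leaving out 1 library gave 0 to 285, with 285 without replicate 2 of Hp1g-/- Tconv with Treg and 10 without replicate 3 of WT Tconv. The difference from the HP1α line (0 calls) gave 68 with library size alone, 920 with DESeq2, 371 with the earlier edgeR form, and 0 to 11 without 1 library. The 20 leading peaks kept their direction in all 579 refits and lost the call in 160. Among 1300 refits of the 45 other named peaks 10 turned sign, all at peaks that did not pass: Irf1 (0.08 with log2 depth and the block), Cbx3 (0.0 with loess offsets and the block, 0.03 with log2 depth and the block), Trim28 (0.03 with library size alone, 0.06 with loess offsets, 0.07 with loess offsets and the block) and Foxp3 (0.66 with limma voom, 1.25 without replicate 1 of WT Tconv in a range of -1.19 to 1.25 over the libraries left out, 1.7 with the block without replicate 1, 0.04 with the block in the earlier edgeR form). Libraries with Treg were the shallower at every replicate number, and the part of depth in these results was not tested.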
